A study of Mus musculus with 9 samples.

Results

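The matrix metalloproteinases (MMPs) described here were Mmp2, Mmp3, Mmp8, Mmp9, Mmp11, Mmp12, Mmp13, Mmp14, Mmp19, and Mmp23. They were taken by gene symbol from a table of 43346 genes, in which each of the 10 symbols had a row. The study asked which gene programs keep lung fibrosis from resolving in aged mice, and compared their lung fibroblasts with those of young mice. The 9 RNA-Seq libraries used here came from 4 aged sham and 5 aged bleo samples. Young samples are not among them, and the paper counted changed genes against young sham rather than aged sham. Aged sham mice had received saline and aged bleo mice bleomycin, a drug that injures the lung and leads to fibrosis, in both groups as 1 intratracheal dose 30 days before the lungs were taken. All 9 samples were from male Col1a1-GFP transgenic mice on an FVB background, with an age of 72 weeks in the sample labels and of 18 months in the treatment protocol. The GFP reporter is driven by the collagen I promoter. GFP+ cells without CD45, CD31, or EpCAM on the surface were sorted straight into lysis buffer without culture, and the gate selects for cells in which this promoter is active. The labels do not say whether each library is 1 mouse, and all p-values measure the spread between these libraries.

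MMPs are zinc-dependent proteases that are made as inactive precursors and cleave the proteins of the extracellular matrix once their propeptide is removed. Gelatinases digest denatured collagen and basement membrane collagen, collagenases make the first cut in fibrillar collagen, stromelysins and elastase act on proteoglycans, laminin, and elastin, and membrane-bound members work at the cell surface. Tissue inhibitors of metalloproteinases (TIMPs) bind the active enzymes, and in lung fibrosis the supply of both by fibroblasts and by leukocytes helps to set how fast matrix is removed. The libraries measured transcripts and neither protein nor activity.

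In aged bleo fibroblasts, 3 of the 10 MMPs were called higher and none lower. Mmp12 and Mmp13 went from near silence to easily counted levels, and Mmp14, already abundant, rose by 1.31 on the log2 scale. A gene was called when the edgeR quasi-likelihood test gave a Benjamini-Hochberg FDR under 0.10 and the fold change was over 1.5. Mmp23 was lower and Mmp19 higher at an FDR of 0.0135 and 0.00121 in this test, but both stayed short of the fold change threshold. Where genes are counted below, rose and fell mean called higher and called lower. Among all 16877 genes tested, 12.3% were called higher and 11.5% lower in aged bleo, or 23.8% in either direction. All 10 MMPs passed the filter of a mean count of at least 25 over all 9 libraries. Mmp13 passed it only through aged bleo, with means of 6.75 reads in aged sham and 705 in aged bleo. The log2 fold changes of the 10 MMPs ran from -0.67 to 6.61 with a median of 0.37, next to 0.0064 over all genes tested. The median was 0.13 over the 8 other MMP genes tested. Both lists were chosen with earlier results of these data known.

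Of the 23 MMP genes in the table, 10 lie within 427 kb of chromosome 9, and Mmp13, Mmp12, Mmp3, and Mmp8 are among them. The letters just upstream of the start sites are shown because Mmp12, Mmp13, and their neighbour Mmp10 (a stromelysin) rose together from very low levels, whereas Mmp3 (another stromelysin beside them) and Mmp14 started from high levels. The sequences are from RefSeq on GRCm38.p6 and end at the base before the annotated start, and all 5 genes are on the + strand. Capitals mark TGAGTCA or its reverse complement TGACTCA, the consensus word bound by AP-1 (dimers of the Fos and Jun families), and TATAAA, the core of the TATA box.
Mmp13 (chr9:7272394-7272513): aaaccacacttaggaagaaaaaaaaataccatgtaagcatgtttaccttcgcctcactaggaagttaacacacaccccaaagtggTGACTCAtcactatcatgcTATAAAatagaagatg
Mmp12, downstream start (chr9:7347254-7347373): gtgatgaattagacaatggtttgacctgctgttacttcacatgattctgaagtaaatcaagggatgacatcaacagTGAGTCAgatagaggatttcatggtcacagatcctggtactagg
Mmp10 (chr9:7502222-7502341): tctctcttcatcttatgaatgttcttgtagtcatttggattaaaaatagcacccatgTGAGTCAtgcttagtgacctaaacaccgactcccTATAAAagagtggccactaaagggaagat
Mmp3 (chr9:7445702-7445821): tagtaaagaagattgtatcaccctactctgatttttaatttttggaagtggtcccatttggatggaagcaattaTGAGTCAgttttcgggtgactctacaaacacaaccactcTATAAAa
Mmp14 (chr14:54431478-54431597): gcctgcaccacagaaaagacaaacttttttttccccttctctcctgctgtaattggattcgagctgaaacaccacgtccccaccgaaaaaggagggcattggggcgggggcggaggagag

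The AP-1 word began 35 bases before the start of Mmp13, 44 bases before the downstream start of Mmp12, 46 bases before that of Mmp3, and 63 bases before that of Mmp10. Promoter windows of 300 bases, from 250 before to 50 after the start, were on hand for 7 of the 10 MMPs (none for Mmp2, Mmp9, and Mmp19), and 3 of these 7 genes had the word on either strand. It was in 5.20% of the 32851 RefSeq promoter windows and in at least 1 window of 5.95% of the genes. TATAAA or TTTATA was in 4 of the 7 (Mmp3, Mmp8, Mmp12, and Mmp13), and in 13.6% of all windows and 15.7% of the genes. This second word began 16 bases before the start of Mmp13 and 7 bases before that of Mmp3. In Mmp8 it began 3 bases before the start and ran across it. In Mmp12 it began 4 bases after the downstream start, outside the letters shown. Mmp14 had neither word in its window, nor had the upstream start of Mmp12. Mmp3 has the same AP-1 word at a like distance as Mmp13 and Mmp12, and its transcripts did not move with theirs. Of 11 other MMP genes with a window, 4 had the AP-1 word: Mmp10, Mmp1a, Mmp1b, and Mmp7. Mmp1a, Mmp1b, and Mmp7 also had TATAAA, and had only 0 to 2, 0 to 7, and 0 to 4 reads per library. Whether the word has a part in these levels was not tested. A match describes these letters only and does not show that a factor binds there.

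The gelatinase Mmp2 (ENSMUSG00000031740, chr8:92827328-92853417) was the most abundant of the 10 in both groups. Levels are given as TMM-normalized CPM, the counts scaled to library size. Mmp2 was at 1258, 1097, 1018, and 1279 CPM in aged sham 1 to 4 and at 1668, 1695, 1585, 1017, and 976 CPM in aged bleo 1 to 5. Aged bleo 1 to 3 were thus above every aged sham library, while aged bleo 5 was below every one of them. Aged bleo 4 lay at the lower end of the aged sham range, just below aged sham 3 in CPM and above it in the deposited FPKM (150.5 and 142). Its log2 fold change was 0.26 (standard error 0.20, FDR 0.344), which did not pass the test, and the 95% interval of -0.19 to 0.70 includes a rise beyond 1.5-fold.

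The second gelatinase, Mmp9 (ENSMUSG00000017737, chr2:164940780-164955850), is best known from neutrophils and macrophages. It was at 19.6, 30.6, 33.2, and 93.6 CPM in aged sham 1 to 4 and at 21.9, 19.7, 25.4, 85.8, and 14.8 CPM in aged bleo 1 to 5. In each group, library 4 stood far above the others and the groups overlapped. A log2 fold change of -0.40 (standard error 0.60, FDR 0.638) did not pass. It depended on these libraries, with 0.27 (FDR 0.751) without aged sham 4, -1.12 (FDR 0.0810, which is called lower) without aged bleo 4, and -0.46 (FDR 0.153) without both.

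Of the collagenases, Mmp8 (ENSMUSG00000005800, chr9:7558429-7568486), which neutrophils store in their granules, was at 1.66, 2.55, 5.04, and 13.0 CPM in aged sham and at 7.32, 3.48, 5.64, 20.8, and 13.2 CPM in aged bleo. Aged sham 4 was at the level of the second highest aged bleo library, and aged sham 3 was above the lowest. With a log2 fold change of 0.86 (standard error 0.68, FDR 0.348), Mmp8 did not pass. Without aged sham 4 it was 1.71 and called higher (FDR 0.0786), and without aged bleo 4 it was 0.41 (FDR 0.653).

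Mmp13 (ENSMUSG00000050578, chr9:7272514-7283333) encodes the main collagenase of mouse connective tissue. It had 9, 5, 5, and 8 reads in aged sham 1 to 4, which is 0.145, 0.0855, 0.0973, and 0.161 CPM, and 472 to 1035 reads in the aged bleo libraries. These were at 10.8, 8.38, 11.6, 14.1, and 15.0 CPM in aged bleo 1 to 5. No aged bleo library came near the aged sham levels, and the coefficient of variation was 29.9% in aged sham and 22.1% in aged bleo. The log2 fold change was 6.59 (standard error 0.28, FDR 5.10e-06). The aged sham values rest on few reads, although all lie above the 3 counts that a count of 0 allows.

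Mmp12 (ENSMUSG00000049723, chr9:7344381-7369499), known as macrophage elastase, rose as much. It was at 0.307, 0.564, 0.623, and 0.443 CPM in aged sham 1 to 4 and at 35.6, 55.1, 34.1, 73.8, and 37.7 CPM in aged bleo 1 to 5. The groups were far apart, with a log2 fold change of 6.61 (standard error 0.35, FDR 1.23e-05). Aged bleo 4 was the highest, and without it the log2 fold change was 6.39. The gene overlaps Mmp1b on the other strand by 1261 bases, and since it is not stated whether the counting used strand, reads there cannot be told apart. Mmp1b itself had 0 to 7 reads per library.

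The stromelysin Mmp3 (ENSMUSG00000043613, chr9:7445822-7455972) cleaves proteoglycans and activates other MMPs. It was at 205, 369, 238, and 268 CPM in aged sham and at 212, 271, 191, 83.5, and 93.0 CPM in aged bleo. Aged bleo 4 and 5 were far below all other libraries, and aged bleo 1 and 2 were within the aged sham range. Mmp3 did not pass at a log2 fold change of -0.67 (standard error 0.35, FDR 0.168), but without aged bleo 2 it was -0.90 and called lower (FDR 0.0606).

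Mmp11 (ENSMUSG00000000901, chr10:75923222-75932502, minus strand), a stromelysin that furin activates inside the cell, was at 46.7, 65.4, 49.6, and 51.4 CPM in aged sham and at 69.1, 57.3, 54.3, 48.7, and 47.9 CPM in aged bleo. The groups covered nearly the same range. Its log2 fold change was 0.06 (standard error 0.13, FDR 0.763) with a 95% interval from -0.24 to 0.36, which leaves no room for a change of 1.5-fold.

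**Figure D1:**
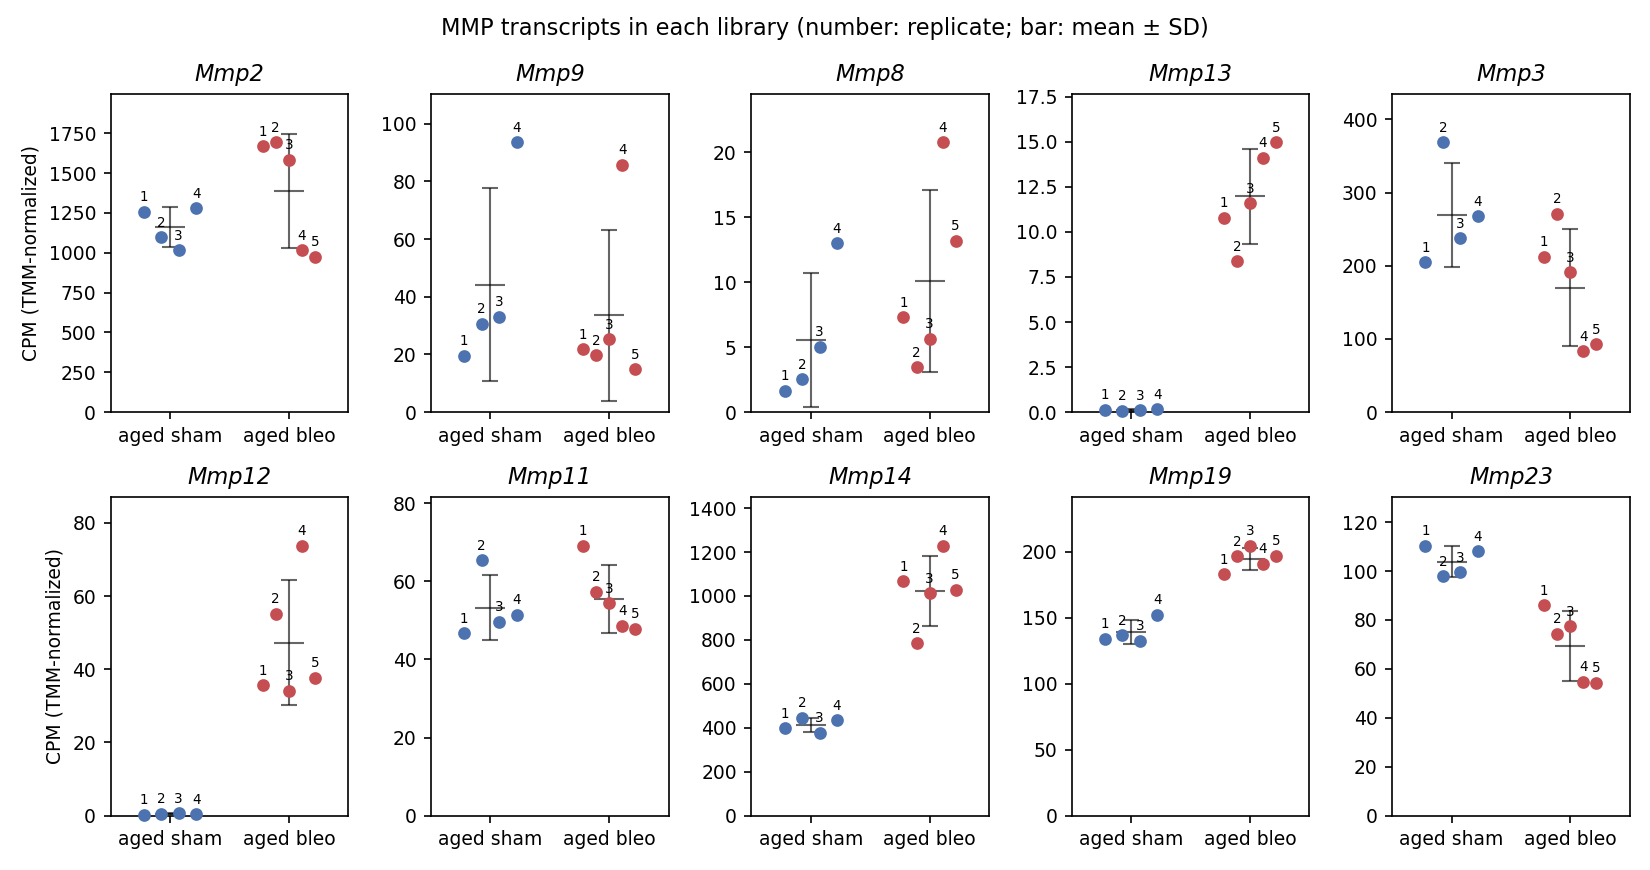
TMM-normalized CPM of the 10 MMPs (1 panel and linear axis from 0 for each) in 4 aged sham (blue) and 5 aged bleo (red) libraries. Numbers are replicates, and bars are the mean ± SD. The groups do not overlap for Mmp12, Mmp13, Mmp14, Mmp19, and Mmp23, and Mmp9 has 1 high library in each group.

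Mmp14 (ENSMUSG00000000957, chr14:54431604-54441258) encodes a membrane-bound collagenase that also activates the Mmp2 precursor. It was at 398, 445, 377, and 435 CPM in aged sham 1 to 4 and at 1067, 784, 1012, 1229, and 1028 CPM in aged bleo 1 to 5. The groups did not overlap, and aged bleo 2 was the lowest of its group. The log2 fold change was 1.31 (standard error 0.13, FDR 2.13e-04) and stayed between 1.22 and 1.39 under every alternative tried.

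Mmp19 (ENSMUSG00000025355, chr10:128790953-128800824), which cleaves basement membrane proteins, differed little but evenly between the groups. It was at 134, 137, 133, and 152 CPM in aged sham and at 183, 197, 205, 191, and 197 CPM in aged bleo. There was no overlap, and the coefficient of variation was the lowest of the 10 MMPs in aged bleo (4.14%). At a log2 fold change of 0.48 (standard error 0.07, FDR 0.00121), Mmp19 passed the FDR but not the fold change threshold and was not called.

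Mmp23 (ENSMUSG00000029061, chr4:155650655-155653384, minus strand), a small member without the hemopexin domain of most MMPs, was lower in aged bleo by less than the fold change threshold. It was at 110.4, 97.8, 99.4, and 108 CPM in aged sham and at 86.0, 74.4, 77.5, 54.7, and 54.4 CPM in aged bleo. Every aged bleo library was below every aged sham library, with aged bleo 4 and 5 the lowest. Its log2 fold change of -0.58 (standard error 0.14, FDR 0.0135) lay just short of 1.5-fold, so Mmp23 was not called, but it was called lower in 8 of 22 alternatives. Over the 10 MMPs, every aged bleo library was above every aged sham library for 4 and below for 1, where 16.1% of all genes tested were separated in each of these directions.

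**Figure D2:**
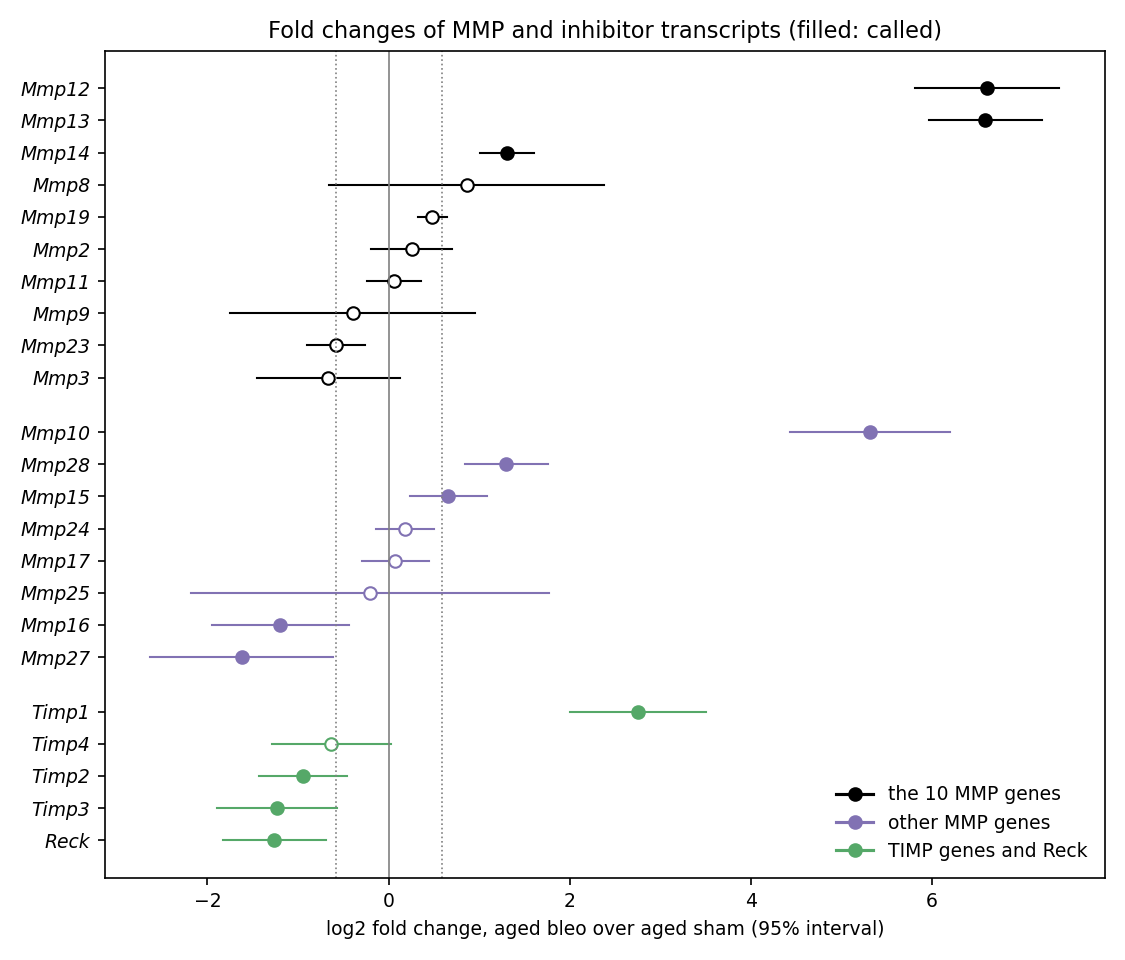
Log2 fold changes (aged bleo over aged sham, x axis) with 95% intervals for the tested genes among the 10 MMPs, the other MMPs, and the inhibitors. Filled points are called, and dotted lines mark 1.5-fold. Mmp12 (6.61), Mmp13 (6.59), and Mmp10 (5.32) lie apart from all others.

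Per gene length, as FPKM deposited by the authors, the levels of the 10 MMPs spanned more than 3 orders of magnitude in aged sham. Mmp2 led with 160.5 ± 15.3 FPKM (SD, n = 4) and ranked 94 among the 43346 genes, followed by Mmp14 with 66.9 ± 5.08 FPKM and Mmp3 with 63.1 ± 17.1 FPKM, which did not differ beyond their spread. Mmp23 (18.6 ± 0.903 FPKM) and Mmp19 (17.1 ± 0.875 FPKM) were the next pair and also overlapped. Mmp11 had 8.70 ± 1.45 FPKM, Mmp9 5.21 ± 3.83 FPKM, and Mmp8 0.944 ± 0.859 FPKM. Mmp12 (0.0281 ± 0.00841 FPKM) and Mmp13 (0.0191 ± 0.00544 FPKM) came last and overlapped.

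In aged bleo, Mmp2 had 196 ± 47.4 FPKM (SD, n = 5) and Mmp14 170.2 ± 30.9 FPKM, and these no longer differed beyond their spread. They ranked 60 and 73 among all genes, where Mmp14 had ranked 248 in aged sham. Mmp3 followed with 40.4 ± 18.4 FPKM and overlapped with Mmp19 at 24.5 ± 0.831 FPKM, which had passed Mmp23 at 12.7 ± 2.43 FPKM. Mmp11 had 9.28 ± 1.40 FPKM and Mmp9 4.15 ± 3.80 FPKM. Mmp12 (2.83 ± 1.09 FPKM), Mmp13 (1.93 ± 0.465 FPKM), and Mmp8 (1.80 ± 1.30 FPKM) overlapped at the lower end.

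The summed FPKM of the 10 genes was 307 to 364 in aged sham and 385 to 525 in aged bleo. Mmp14 made up 19.0% to 20.1% of it in the aged sham libraries and 26.5% to 47.3% in the aged bleo libraries. The share of Mmp3 was 14.4% to 24.0% in aged sham and 4.64% to 13.2% in aged bleo, and that of Mmp23 averaged 5.49% and 2.73%, both without overlap. Mmp2 held 42.2% to 52.3% and 33.4% to 48.9%, with overlap. Mmp12 and Mmp13, in spite of their fold changes, reached only 0.618% ± 0.251 and 0.428% ± 0.147 (SD, n = 5). The FPKM and share of Mmp12 depend on its listed length of 7237 bases, the longest of the 10. In CPM, without division by length, Mmp12 averaged 47.3 in aged bleo, next to 55.5 for Mmp11. Shares of 1 sum depend on each other and were not tested.

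**Figure D3:**
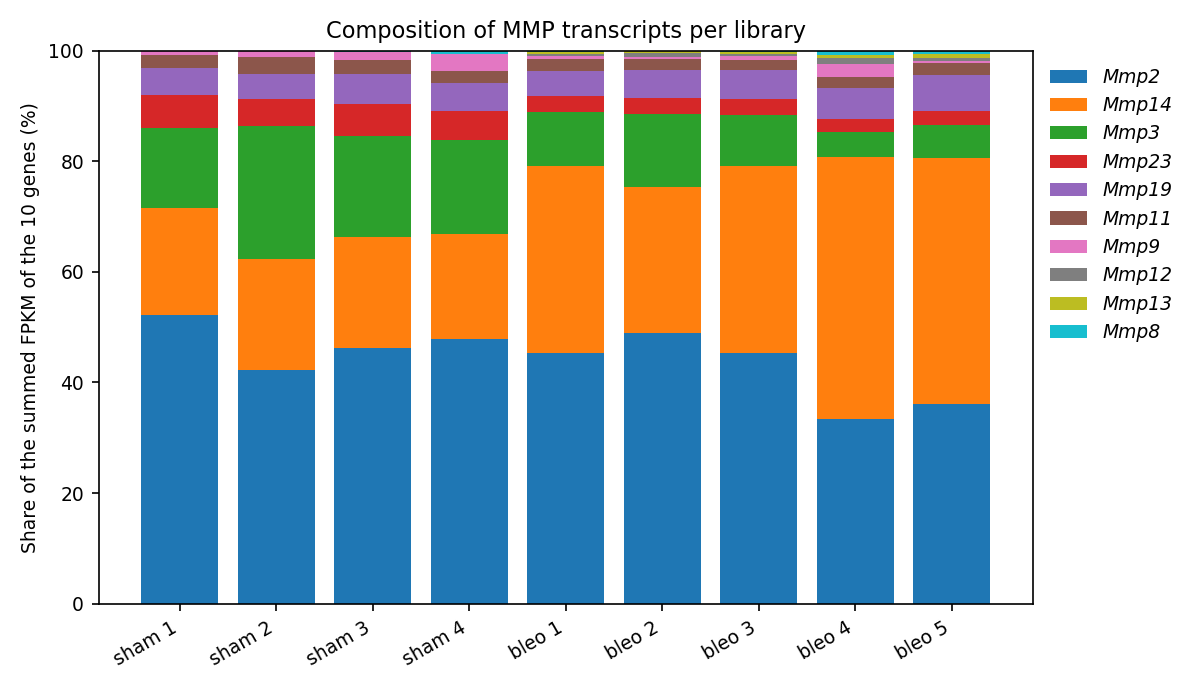
Share of each of the 10 MMPs (colours) in their summed FPKM, in percent, for every library. Mmp14 makes up 19.0% to 20.1% in aged sham and 26.5% to 47.3% in aged bleo, most in aged bleo 4.

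The aged bleo libraries differed among themselves, and for several MMPs aged bleo 4 and 5 stood on one side. Within their group, these libraries had the lowest Mmp2, Mmp3, Mmp11, and Mmp23 and the highest Mmp8 and Mmp13. On the first principal component of all genes tested (61.4% of the variance, the MMPs included), aged sham lay between -69.1 and -50.1, aged bleo 2 was nearest to it at 5.18, and aged bleo 5 and 4 were farthest at 72.4 and 88.7. Aged bleo 2 had the lowest Mmp13 and Mmp14 of its group and the highest Mmp2 and Mmp3. Other MMPs were ordered differently. Aged bleo 2 was the second highest library for Mmp12, Mmp9 was highest in aged bleo 4 and lowest in aged bleo 5, Mmp19 was highest in aged bleo 3 and lowest in aged bleo 1, Mmp14 was higher in aged bleo 1 than in aged bleo 5, and Mmp23 was highest in aged bleo 1.

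Other MMP genes in the table numbered 13, of which 8 were tested. Mmp10 (chr9:7502352-7510238) was at 0.0968 to 0.325 CPM in aged sham and at 5.73 to 10.1 CPM in aged bleo, and it rose by a log2 fold change of 5.32 (standard error 0.39, FDR 3.79e-05). With means of 10 reads in aged sham and 435 in aged bleo, Mmp10 passed the filter only through aged bleo. Mmp28 (epilysin) and the transmembrane Mmp15 also rose (1.30 and 0.66, FDR 0.00196 and 0.0251), and Mmp27 and the transmembrane Mmp16 fell (-1.62 and -1.20, FDR 0.0214 and 0.0232). Mmp17, Mmp24, and Mmp25 were not called (0.07, 0.18, and -0.20). Mmp1a, Mmp1b, Mmp7, and Mmp21 were below the filter, and Mmp20, an enamel protease, had no read in any library, which allows up to 0.0409 to 0.0604 CPM. All 8 tested genes were far less abundant than Mmp2 or Mmp14, the highest being Mmp17 with 2.30 ± 0.509 FPKM (SD, n = 4) in aged sham.

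The inhibitors moved in both directions. Timp1 rose from 53.8 to 62.7 CPM in aged sham to between 164 and 585 CPM in aged bleo libraries (2.75 on the log2 scale, standard error 0.33, FDR 5.19e-04). Timp2, which with Mmp14 forms the surface complex that captures the Mmp2 precursor, fell (-0.95, standard error 0.22, FDR 0.0102), as did the matrix-bound Timp3 (-1.23, standard error 0.30, FDR 0.0127) and the membrane-anchored inhibitor Reck (-1.26, standard error 0.25, FDR 0.00576). Timp4 had a log2 fold change of -0.63 and was not called (FDR 0.122).

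Per length, Mmp14 was far below Timp2 in aged sham, and it was above Timp2 in aged bleo 4 and 5 but below it in aged bleo 1 to 3. The ratio of their FPKM was 0.170, 0.173, 0.152, and 0.161 in aged sham 1 to 4 and 0.706, 0.447, 0.689, 1.43, and 1.09 in aged bleo 1 to 5. The ratio of Mmp2 to Timp2 was 0.351 to 0.460 in aged sham and 0.826 to 1.01 in aged bleo. Mmp14 stood to Mmp2 at a ratio of 0.370 to 0.475 in aged sham and 0.541 to 1.41 in aged bleo, and was the more abundant of the pair in aged bleo 4 and 5. Although Mmp2 and Timp2 each varied widely in aged bleo, the ratio of Mmp2 to Timp2 had an SD of only 0.0699 around its mean of 0.917. The summed FPKM of the 10 MMPs was 0.501 ± 0.0425 (SD, n = 4) times that of Timp1 to Timp4 in aged sham and 0.906 ± 0.0647 times (SD, n = 5) in aged bleo. None of these ratios overlapped between the groups, and they were not tested.

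**Figure D4:**
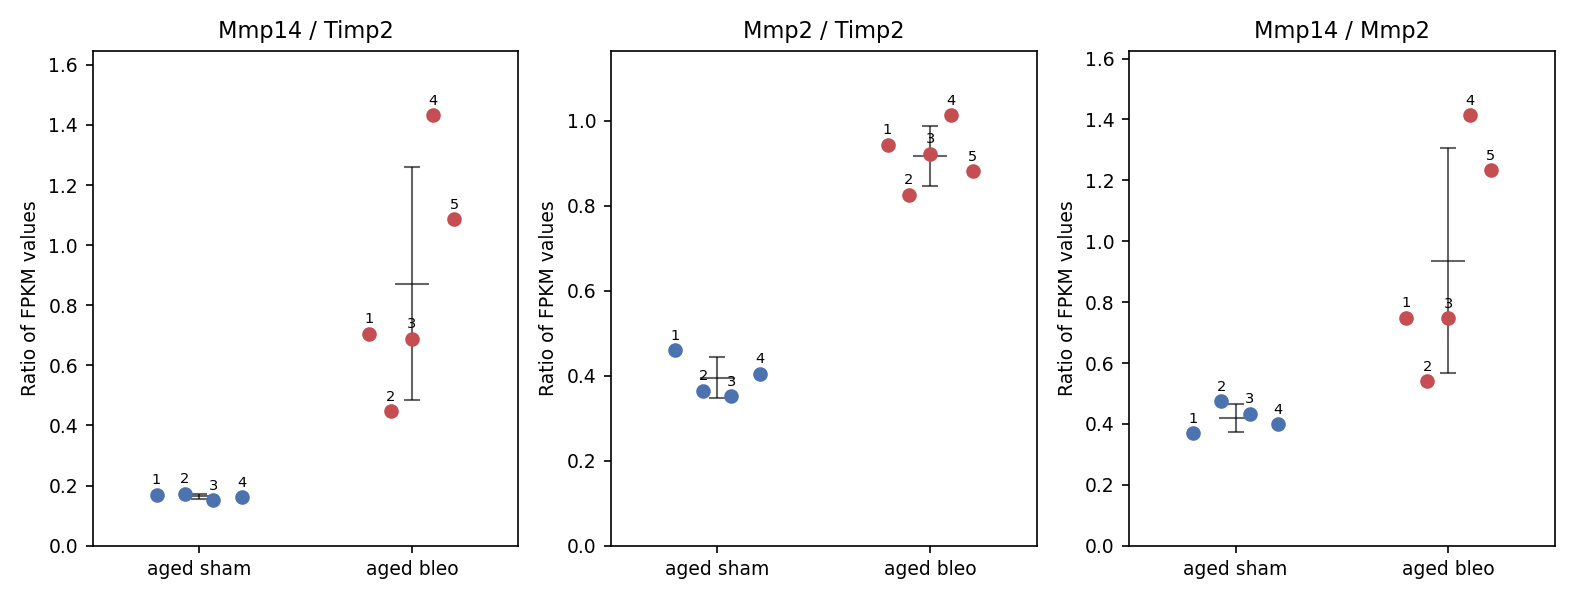
Ratios of FPKM of Mmp14 to Timp2, Mmp2 to Timp2, and Mmp14 to Mmp2 (y axes from 0) in 4 aged sham (blue) and 5 aged bleo (red) libraries, with mean ± SD. The groups do not overlap in any panel. Mmp2 to Timp2 lies between 0.826 and 1.01 in aged bleo, while Mmp14 to Timp2 runs from 0.447 to 1.43.

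Of 8 tested genes that activate or clear MMPs, 2 rose and 1 fell. Furin, the convertase that removes the propeptide of Mmp14 and Mmp11, rose by 1.13 (standard error 0.15, FDR 7.30e-04) on the log2 scale, and Plaur, the receptor of urokinase, by 1.11 (standard error 0.41, FDR 0.0619). The groups overlapped for Plaur, with aged sham 4 at 49.6 CPM and aged bleo 1 and 2 at 48.0 and 34.7 CPM. Its highest level was in aged bleo 4 (161 CPM). Pcsk6, another convertase, fell by 2.55 (standard error 0.54, FDR 0.00717). Plau, Plat, Pcsk5, Bsg, and the clearance receptor Lrp1 were not called, with log2 fold changes from -0.38 to 0.24, and Plg was below the filter. Of the 7 AP-1 genes, 6 fell (Fos, Fosb, Fosl2, Jun, Junb, and Jund, from -1.20 to -0.63), where 11.5% of all genes tested were called lower. Fosl1 had 0.35 and was not called (FDR 0.307). The lungs were digested with enzymes before the sort, and the effect of this step on AP-1 transcripts was not tested. AP-1 protein and activity were not measured, and whether AP-1 has a part in the changes of Mmp12, Mmp13, and Mmp10 was not tested.

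Cells of other types could contribute MMP transcripts, and in bulk RNA fewer cells of a type and less RNA per cell cannot be told apart. As to the fibroblast label, the 7 fibroblast genes averaged from 357 CPM (Pdgfrb) to 8114 CPM (Dcn) in aged sham and from 565 CPM (Pdgfrb) to 23879 CPM (Col3a1) in aged bleo. Of the genes of the surface proteins used to exclude cells, Ptprc (CD45) was at 42.3 to 168 CPM in aged sham and 30.6 to 183 CPM in aged bleo, while Pecam1 (CD31) averaged 6.12 and 4.34 CPM and Epcam 0.592 and 0.667 CPM in aged sham and aged bleo. Of 11 macrophage markers, 6 rose and none fell, and their summed level was 189 to 315 CPM in aged sham and 535 to 1705 CPM in aged bleo, with none at 0 in any library. Of 11 neutrophil markers, 8 were tested and none called, with summed levels of 150.2 to 932 CPM and 73.5 to 863 CPM and, again, none at 0. Of 7 pan-leukocyte markers, Laptm5 rose and 6 were not called. Of 4 tested T and NK cell markers none was called, while all 4 B cell markers fell, with sums of 0.985 to 24.2 and 0.929 to 10.6 CPM over all libraries. In the lists of endothelial and epithelial markers, 1 of 5 (Kdr) and 1 of 6 (Krt8) rose, and none of 4 mesothelial markers was called. Of 6 smooth muscle and pericyte markers, 2 fell. Their summed level was 2542 to 5169 CPM in aged sham and 1763 to 2829 CPM in aged bleo. In every library it was the highest of these marker lists after the fibroblast genes. Of the fibroblast genes, 4 rose and Dcn fell, from a mean of 8114 to 2792 CPM.

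Mmp12 rose far more than the macrophage markers did. Its mean CPM was 97.7 times as high in aged bleo as in aged sham, where the summed macrophage markers were 3.75 times as high. For the single macrophage markers this ratio ran from 1.12 (Mertk) to 5.35 (Lyz2). Lyz2 made up much of the macrophage sum, on average 117 of 245 CPM in aged sham and 627 of 917 CPM in aged bleo. Mmp12 amounted to 0.141% to 0.281% of that sum in the aged sham libraries and 3.90% to 7.36% in the aged bleo libraries. Within aged bleo it was highest in library 4, where the macrophage sum was also highest, but second highest in library 2 and not in library 5, whose sum was larger. The part of macrophages in the rise of Mmp12 was not tested.

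Mmp9 ranked the libraries of each group in the same order as the summed neutrophil markers. These were at 150.2, 201, 422, and 932 CPM in aged sham 1 to 4 and at 120.4, 92.3, 124, 863, and 73.5 CPM in aged bleo 1 to 5. Mmp9 amounted to 7.85% to 15.2% of this sum in aged sham and 9.94% to 21.4% in aged bleo, and the part of neutrophils in its level was not tested.

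Mmp8 followed the neutrophil markers in aged sham, at 1.11% to 1.40% of their sum in each library. In aged bleo it did not, with 2.41% to 18.0%. The highest of these shares was in aged bleo 5, which had the lowest neutrophil sum of all libraries and the second highest Mmp8 level. All 5 aged bleo libraries had more Mmp8 relative to the neutrophil markers than any aged sham library, while Mmp8 itself did not pass the test. Relative to the summed macrophage markers the groups overlapped, with 0.879% to 4.14% in aged sham and 0.464% to 1.37% in aged bleo, and aged bleo 5 had the second highest macrophage sum (967 CPM). The part of either cell type in the Mmp8 level was not tested.

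**Figure D5:**
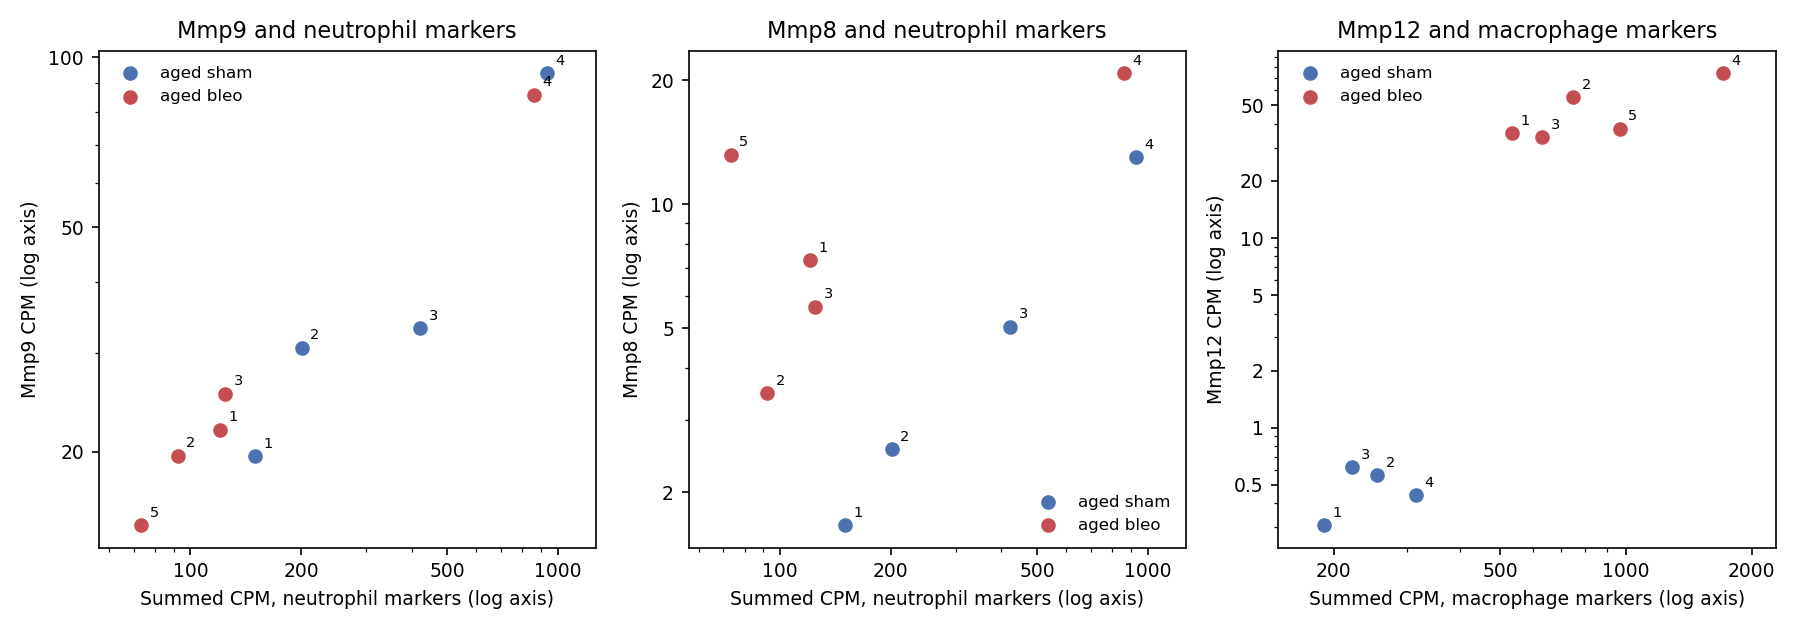
CPM of Mmp9 and Mmp8 against the summed CPM of 11 neutrophil markers, and of Mmp12 against that of 11 macrophage markers, for 4 aged sham (blue) and 5 aged bleo (red) libraries. Both axes are logarithmic and numbers are replicates. Mmp9 is higher where the neutrophil sum is higher in both groups, whereas aged bleo 5 has 13.2 CPM of Mmp8 at the lowest neutrophil sum.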

How the data were processed

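The deposited table gives, for each of the 9 libraries, whole-number read counts per gene without normalization and FPKM values, which the authors scaled by gene length and by a library size that is 2.27 to 2.42 times the summed counts. Libraries were made from polyadenylated RNA (TruSeq v2). STAR 2.5.2b, featureCounts, and the builds mm10 and GRCm38 are named in the submitters' processing notes, and 33460 of 42462 identifiers shared with GENCODE M21 have its GRCm38 positions. Whether strand was used is not stated. The counts summed to 49921946 to 62370512 per aged sham library (median 54988154) and 53833507 to 68260600 per aged bleo library (median 55598628), so 3 counts, which a count of 0 allows, are 0.0409 to 0.0604 CPM (counting error only). No pair of libraries in a group was a duplicate, as the chi-square of their counts per degree of freedom was at least 30.9.

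Libraries were grouped by their labels. Genes with a mean count of at least 25 were tested with edgeR 4.0.16 (TMM, glmQLFit, glmQLFTest) in R 4.3.3, with no covariate, and called at a Benjamini-Hochberg FDR under 0.10 and a fold change over 1.5, the thresholds of the study, which used a moderated test. Standard errors and 95% intervals come from the fold change and its test. The scripts were tested on simulated data. Alternatives were RLE or no normalization, testing all genes with a count, a minimum of 10 counts in every library, DESeq2 1.42.0, limma 3.58.1 on log2 CPM and on log2(FPKM + 0.1) and log2(FPKM + 1), a robust fit, an FDR under 0.05 with a fold change over 2, each library left out in turn, aged sham 4 and aged bleo 4 left out together, and the replicate number as a block. The same libraries without the block were added after seeing the data.

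The genes named are the 10 MMPs, the other MMPs, inhibitors, activation and clearance genes, AP-1 genes, marker genes within their lists, and, for each of the 10, the 3 genes of at least 1 CPM on average whose log2 CPM deviations from the group means correlate best with its own. The members and lists were chosen with earlier results of these data known. Promoter windows are from RefSeq.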

Additional observations from a re-analysis of the deposited data

Results flagged for a closer look

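Mmp9 in aged bleo 4 was at 85.8 CPM, and the nearest of the other aged bleo libraries was at 25.4 CPM. The gap was 0.852 of the group's range, which makes this library stand apart from the rest of its group. Over the 10 MMPs, 20 groups of libraries were looked at in this way, and chance alone gives about 1 in 20. The same library had 863 CPM of summed neutrophil markers, where the other aged bleo libraries had 73.5 to 124 CPM. It was also the highest of its group in summed pan-leukocyte markers (613 CPM, the others 112 to 170 CPM). Its summed macrophage markers were at 1705 CPM, the others at 535 to 967 CPM. Which cells the Mmp9 transcripts came from was not tested.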

How the results depend on the processing

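The 4022 genes called became 1785 with limma on log2(FPKM + 1) and 2158 at stricter thresholds (FDR 0.05 and 2-fold), which also took the other listed genes called from 38 to 25. With each library left out in turn, 3525 to 4597 genes, 3 to 5 of the 10 MMPs, and 33 to 47 other listed genes were called, and the 5 were reached without aged bleo 2, where Mmp3 and Mmp23 were called lower. Mmp12, Mmp13, and Mmp14 were called under every alternative that tested them, but a minimum of 10 counts in every library removed Mmp13, which leaves 2, and on log2(FPKM + 1), which understates the change of low genes, the log2 fold changes of Mmp12 and Mmp13 were 1.85 and 1.51. In the same way, the log2 fold change of Mmp11 ranged from -0.0325 to 0.17 and that of Mmp9 from -1.12 to 0.27, with a turned sign of Mmp11 without aged sham 1 (-0.0014) and without aged bleo 1, and of Mmp9 without aged sham 4. The causes were not tested. Without aged sham 4 and aged bleo 4, 3596 genes, 3 MMPs, and 44 other listed genes were called. With the replicate block (replicates 1 to 4 of each group), 3541 genes, 3 MMPs, and 36 other listed genes were called, against 3525 genes in the same libraries without the block. Samples with the same number had correlations of 0.09, 0.06, -0.13, and 0.33 in their deviations. Not every one correlated best with its own number, but the 0.33 of aged sham 4 and aged bleo 4 was the highest of all pairs. Against the same libraries without it, the block took the standard error of Mmp9 from 0.62 to 0.14 and of Mmp8 from 0.74 to 0.34. It raised the standard errors of Mmp2, Mmp11, Mmp14, and Mmp19. The labels name no pairs, and whether the numbers mark pairs or batches was not tested. The aged sham levels of Mmp12 and Mmp13 rest on 5 to 33 reads per library.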

Other observations

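For each MMP, the 3 genes whose log2 CPM moved most like it between the libraries of a group were looked up among 15268 genes, by the Pearson correlation of the deviations from the group means over 9 libraries. The highest values of a search over so many genes were taken, so they are given as a description only. The genes nearest to Mmp2 were Fbln7 (r = 0.99), Vsig10, and Trpm3, and those nearest to Mmp3 were Mettl7a1 (r = 0.99), Glrb, and Irs3. For Mmp8, the iron exporter gene Slc40a1 came first (r = 0.99), before Gm15832 and A730081D07Rik, and for Mmp9 Gpsm3 (r = 0.99), Acpp, and Pygl. Mmp11 was nearest to Efna1 (r = 0.99), 0610011F06Rik, and C1qtnf5, and Mmp12 to Dync1li1 (r = 0.97), Exosc3, and Rnf8. Mmp13 was followed by E2f8 (r = 0.97), the transcription factor Runx1 (r = 0.97), and Ociad2, Mmp14 by Sars2 (r = 0.99), Bckdk, and Dhrs1, Mmp19 by Zfp784 (r = 0.92), Nom1, and Trim12c, and Mmp23 by Bbs9 (r = 0.97), Dnah1, and Carhsp1. No MMP was among the 3 genes nearest to another.

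Library names carry a last number without a stated meaning, which was 4 throughout aged sham, while aged bleo 4 had 4, aged bleo 5 had 6, and the remaining aged bleo libraries had 5. Aged bleo 4, the only library of its group with the number of aged sham, had 73.8 CPM of Mmp12, 14.1 CPM of Mmp13, and 1229 CPM of Mmp14. Each was far above the aged sham libraries, but this is 1 library, with the highest macrophage sum of all (1705 CPM). In the remaining aged bleo libraries, the last number cannot be told apart from the treatment, and its part was not tested.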
